A study of Mus musculus with 16 samples.

Results

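The genes of chylomicron assembly and dietary lipid absorption were analyzed in differentiated jejunal enteroids of the mouse, that is, in intestinal epithelium grown from crypts in gel. The set held 10 of the 54532 genes in the count table, matched by gene name from a list drawn up with earlier results of these data known: the apolipoprotein genes Apoa1, Apoa4, Apob and Apoc3, the lipid transfer gene Mttp, the triglyceride synthesis genes Mogat2 and Dgat1, and the fatty acid uptake and binding genes Cd36, Fabp1 and Fabp2. All 10 passed the filter on low counts in each comparison, and their counts per culture ran from 115 (Cd36) to 133821 (Fabp1). The study examined how loss of the motor protein MYO5B, whose mutations cause microvillus inclusion disease, alters the intestinal epithelium, and whether an agonist of the lysophosphatidic acid receptor LPAR5 modifies it.

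There were 4 groups of 4 cultures, stated to come from 4 adult mice each. MYO5BΔIEC enteroids carried Vil-CreERT2;Myo5b-flox/flox, in which the villin promoter drives an inducible Cre recombinase in epithelial cells, and received vehicle. A further group of the same genotype received Compound-1, a synthetic LPAR5 agonist, at 100 nM for 2 days during differentiation. MYO5B(G519R) enteroids carried Vil-CreERT2;Myo5b-flox/G519R, so that recombination leaves only the mutant allele. These 3 groups were given 4-OH-tamoxifen at 1 µM for 24 h before differentiation. The labels give the fourth group as control with no treatment, and the sources differ on its origin: the methods describe uninduced cultures of the flox/flox mice given ethanol vehicle, and a figure legend describes healthy littermates. Against this control, MYO5B loss and any effect of tamoxifen or of active Cre cannot be told apart.

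In the fed intestine, lipases release fatty acids and monoacylglycerol from dietary fat, and enterocytes take both up across the brush border. Inside the cell fatty acid-binding proteins hold the fatty acids, and acyltransferases of the endoplasmic reticulum rebuild triglyceride from them. Microsomal triglyceride transfer protein then loads the triglyceride onto apolipoprotein B, and the particle, joined by smaller apolipoproteins, leaves in coated vesicles for the Golgi and is secreted as a chylomicron into lymph.

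Each comparison fitted its own pair of groups in edgeR, and a gene was called where its p-value, adjusted over all genes tested, was under 0.05. Library totals ran from 27804968 to 40101729 counts, and the 10 genes together took 0.270% to 1.23% of them. Enterocyte markers were abundant (15 genes, summed level 3834 to 11890 in CPM, a unit of reads relative to the library's total), whereas 6 fibroblast markers summed to at most 0.956 CPM, with Col3a1, Dcn and Lum at 0 in every library. The targeted gene Myo5b was lower in mean level in the models (128 CPM for MYO5BΔIEC, 150 CPM for MYO5B(G519R)) than in control (189 CPM), and its log2 fold change of -0.55 in MYO5BΔIEC was not called (edgeR adjusted p = 0.0503). Control culture 1 stood apart: its mean correlation with the other controls across genes was 0.945, against 0.974 to 0.978 for those 3. Its scaling factor for the library size (TMM) was 1.00, against 0.845 to 0.879 in those 3 and 1.00 to 1.10 in the other groups. The genes of lipid absorption were among those that set it apart, since in this culture Fabp1 was 16.5-fold, Fabp2 8.98-fold, Apoa1 5.32-fold and Apoa4 3.81-fold below the mean of the other controls, while 223 of 13545 genes (1.65%) were more than 5-fold lower there. Each comparison of the 10 genes with control is therefore given with and without this culture. The culture was singled out after its values were seen, partly by these genes. Calls and adjusted p-values without it are thus descriptive and are no independent evidence of a change. Mitochondrially encoded genes took 6.41% of counts in control culture 1, 9.07% to 10.4% in the other controls and 3.79% to 6.63% in the other groups. Their part in the results was not tested. Leaving them out of the library sizes moved no call on the 10 genes, but the scaling between libraries was recomputed there, so that fit cannot show their part. RNA was measured in whole cultures, so fewer enterocytes and less RNA per enterocyte cannot be told apart.

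The sequences before the transcription start are shown for the 3 genes of fatty acid uptake and binding and for 2 apolipoproteins. RefSeq promoter windows on GRCm38.p6 matched 7 of the 10 genes: Apoa1, Apoa4, Apob, Mttp, Cd36, Fabp1 and Fabp2. Below are 198 bases of the 250 before the RefSeq start, ending 52 bases before it so that no annotated exon is included, for Fabp1 (chr6:71199629-71199826, plus strand), Fabp2 (chr3:122894822-122895019, plus strand) and Cd36 (chr5:17835949-17836146, minus strand), which had the most negative values of the 10 genes against control, and for Apoa1 (chr9:46228380-46228577, plus strand) and Apob (chr12:7977427-7977624, plus strand). The Cd36 window lies inside the annotated span of that gene (17781690 to 17888801), so its RefSeq start is not the outermost annotated start. Capitals mark matches to any of 6 motifs, on either strand.
Fabp1: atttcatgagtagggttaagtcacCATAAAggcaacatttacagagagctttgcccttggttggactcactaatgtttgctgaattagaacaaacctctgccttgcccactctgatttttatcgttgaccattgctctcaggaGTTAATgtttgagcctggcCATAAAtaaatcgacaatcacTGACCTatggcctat
Fabp2: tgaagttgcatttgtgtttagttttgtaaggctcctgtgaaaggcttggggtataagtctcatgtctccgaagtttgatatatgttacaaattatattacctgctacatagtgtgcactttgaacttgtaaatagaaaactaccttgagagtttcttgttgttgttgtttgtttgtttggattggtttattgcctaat
Cd36: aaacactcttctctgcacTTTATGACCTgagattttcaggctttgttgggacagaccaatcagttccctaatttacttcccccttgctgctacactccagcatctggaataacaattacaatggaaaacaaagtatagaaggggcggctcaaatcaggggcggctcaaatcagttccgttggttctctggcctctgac
Apoa1: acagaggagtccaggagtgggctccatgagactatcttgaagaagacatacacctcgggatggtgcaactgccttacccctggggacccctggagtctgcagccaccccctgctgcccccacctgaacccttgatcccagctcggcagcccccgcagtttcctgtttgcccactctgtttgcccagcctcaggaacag
Apob: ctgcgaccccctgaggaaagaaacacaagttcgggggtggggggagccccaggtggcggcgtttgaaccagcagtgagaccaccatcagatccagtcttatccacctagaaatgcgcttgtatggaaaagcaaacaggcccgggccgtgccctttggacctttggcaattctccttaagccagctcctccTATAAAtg

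Within the whole 250 bases, Fabp1 held 6 of the 9 matches found in the 7 genes. It had a TATA box (TATAAA) starting 30 bases before the start, an HNF1 core (GTTAAT, a single arm of the palindromic element) at 107, CDX sites (TTTATG) at 226 and 88, and nuclear receptor cores (AGGTCA, the unit that is repeated in a full element) at 67 and 9. The matches at 30 and 9 lie in the 52 bases left out above, where an annotated exon of Fabp1 begins. Cd36 held a CDX site at 232 and a nuclear receptor core at 228 that overlap by 2 bases, and Apob a TATA box at 60. Fabp2, Apoa1, Apoa4 and Mttp held no match, and no window held the exact letters of the GATA site AGATAA or the HNF4 element CAAAGTCCA. Each motif was searched in exact letters only, so variant sites were missed. A window without a match can still hold a site for the same factor. Of all 32851 promoter windows of this length, 12.4% held the TATA box, 9.99% the GATA site, 0.384% the HNF4 element, 6.43% the HNF1 core, 10.8% the CDX site and 14% the nuclear receptor core. No motif was found in all 3 of Fabp1, Fabp2 and Cd36.

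Levels between genes were compared in FPKM, the reads scaled to gene length and library size. In control, Fabp1 was the highest of the 10 genes at 5401 ± 3355 FPKM (mean ± SD, n = 4) and stood in place 8 of 54532 genes. Apoa1 followed at 1482 ± 787, then Fabp2 at 838 ± 508, Apoa4 at 438 ± 197, Apoc3 at 232 ± 94.1, Mttp at 173 ± 53.2, Dgat1 at 95.8 ± 14.3, Apob at 91.8 ± 43.0 and Mogat2 at 53.9 ± 16.1. Cd36, the scavenger receptor that takes up long-chain fatty acids, was lowest at 7.88 ± 3.69 FPKM and stood in place 5826. The genes were measured in the same cultures, so the order was also read within each control culture. It was kept except that Apoa4 was above Fabp2 in culture 1 (144 and 123 FPKM) and Apob above Dgat1 in culture 2 (146 and 108 FPKM). Apoc3 and Mttp were close in culture 1 (105 and 103 FPKM). In the treated group the mean of Apoa1, at 1092 FPKM, was above that of Fabp1 at 1054, but by culture this held only in treated cultures 1 and 3. In all 3 MYO5B-deficient groups the mean of Apoa4 was above that of Fabp2, as was also the case in control culture 1.

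**Figure D1:**
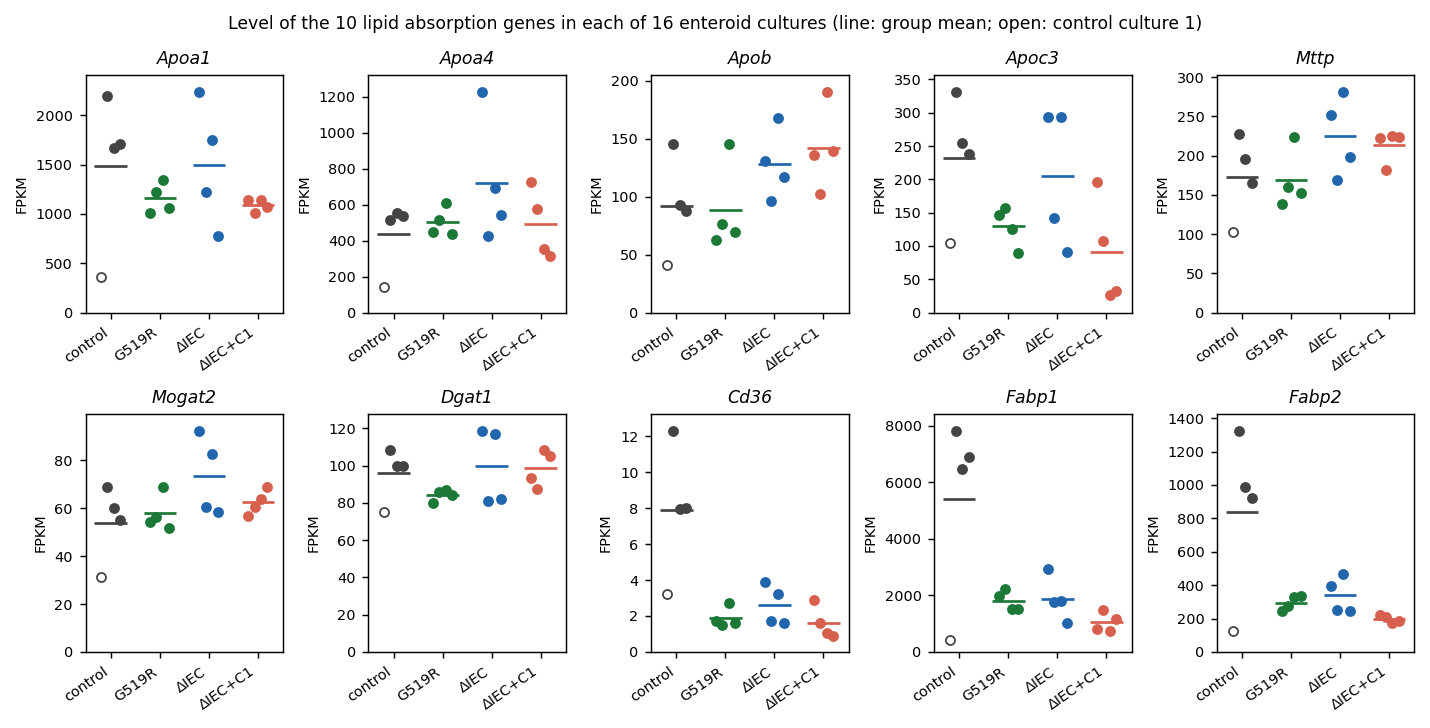
Level of each gene in FPKM (vertical axis, from 0) in each culture of control, MYO5B(G519R), MYO5BΔIEC and Compound-1-treated MYO5BΔIEC (ΔIEC+C1) enteroids, with the group mean as a line and control culture 1 as an open circle. For Cd36, Fabp1 and Fabp2 the 12 cultures with altered MYO5B lie below control cultures 2 to 4, whereas control culture 1 lies lowest for Fabp1, Fabp2 and 6 other genes.

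The genes of fatty acid uptake and binding had the most negative values of the 10 in both models. By edgeR, fitted to each pair of groups, Cd36 was called lower with all cultures, whereas Fabp1 and Fabp2 were called without control culture 1 but not with it. Other fits with all cultures also called them, as DESeq2 did for Fabp2 in MYO5B(G519R) (DESeq2 adjusted p = 0.0485). Fabp1 (ENSMUSG00000054422, GRCm38 chromosome 6, 71199827 to 71205023), the liver-type fatty acid-binding protein, was at 439, 7799, 6456 and 6911 FPKM in control cultures 1 to 4. It was at 2918, 1784, 1787 and 1031 FPKM in MYO5BΔIEC and at 1977, 2234, 1506 and 1512 FPKM in MYO5B(G519R) cultures. Control cultures 2 to 4 were thus above every culture of either model and the remaining control was below all of them, so that the groups overlap. Its log2 fold change was -1.56 in MYO5BΔIEC (SE 0.65, edgeR adjusted p = 0.0996) and -1.62 in MYO5B(G519R) (SE 0.64, edgeR adjusted p = 0.0870), and neither passed. Without control culture 1 it passed in MYO5BΔIEC at -1.94 (SE 0.28, edgeR adjusted p = 0.000306) and in MYO5B(G519R) at -1.97 (SE 0.16, edgeR adjusted p = 3.51e-05).

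Fabp2 (ENSMUSG00000023057, chromosome 3, 122895072 to 122899506), the intestinal fatty acid-binding protein, had the same arrangement. It was at 123, 1320, 988 and 920 FPKM in control, 395, 251, 468 and 247 FPKM in MYO5BΔIEC and 246, 273, 327 and 332 FPKM in MYO5B(G519R) cultures. Its log2 fold change was -1.33 in MYO5BΔIEC (SE 0.54, edgeR adjusted p = 0.0908) and -1.54 in MYO5B(G519R) (SE 0.53, edgeR adjusted p = 0.0569). With control culture 1 left out the values were -1.70 (edgeR adjusted p = 0.000279) and -1.88 (edgeR adjusted p = 3.51e-05). An antisense gene that overlaps Fabp2, 4933405D12Rik, had 1 to 47 counts per library.

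Cd36 (ENSMUSG00000002944, chromosome 5, 17781690 to 17888801) fell in both models with every culture included. It was at 3.24, 12.3, 7.98 and 8.02 FPKM in control cultures 1 to 4. In MYO5BΔIEC it was at 3.87, 1.74, 3.24 and 1.59 FPKM, with cultures 2 and 4 below the lowest control, culture 3 level with it and culture 1 above it. In MYO5B(G519R) it was at 1.71, 1.47, 2.71 and 1.64 FPKM, below every control. The log2 fold change was -1.63 in MYO5BΔIEC (SE 0.40, 3.09-fold lower, edgeR adjusted p = 0.0142) and -2.10 in MYO5B(G519R) (SE 0.37, 4.28-fold lower, edgeR adjusted p = 0.00416). Leaving out control culture 1 gave -1.89 and -2.33. Both calls held in each of the 8 fits that left out 1 culture, in MYO5BΔIEC with an edgeR adjusted p of up to 0.0495. Cd36 is also shown in a heat map that the study drew from these cultures, so its direction is not independent evidence.

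Cd36 was the gene called among the 10 in either comparison. In MYO5BΔIEC against control 27.4% of 17951 genes tested were called, 13.8% of those tested as lower, and no lipid absorption gene was called higher. In MYO5B(G519R) against control 26.8% of 17829 genes were called, 13.7% as lower. 1 call in 10 is thus near the background in each. Groups that did not overlap, with MYO5BΔIEC lower, were seen for 13.8% of all genes and for none of the 10, and with MYO5B(G519R) lower for 13.8% and for Cd36. Without control culture 1, 3 of 10 genes were lower in MYO5BΔIEC (Cd36, Fabp1 and Fabp2) against a background of 20.8%. In MYO5B(G519R) 6 of 10 were lower against 22.1%: those 3 together with Apoc3 (log2 fold change -1.09, edgeR adjusted p = 0.000917), Apoa1 (-0.69, edgeR adjusted p = 0.00264) and Dgat1 (-0.29, edgeR adjusted p = 0.0176). The median log2 fold change over the 10 genes was 0.01 in MYO5BΔIEC and -0.30 in MYO5B(G519R), beside -0.01 and -0.05 over all genes tested.

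**Figure D2:**
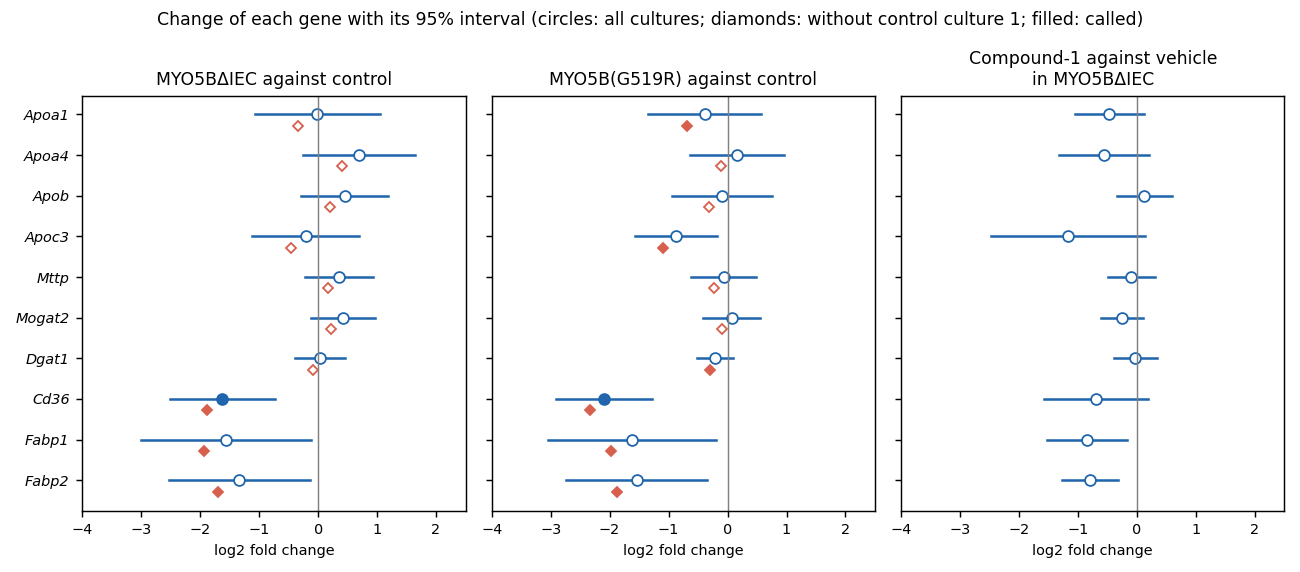
Log2 fold change (horizontal axis) with its 95% interval for each gene in MYO5BΔIEC against control, MYO5B(G519R) against control and Compound-1 against vehicle in MYO5BΔIEC; diamonds show the value without control culture 1, and filled symbols an edgeR adjusted p under 0.05. Cd36, Fabp1 and Fabp2 lie between -1.33 and -2.10 against control with all cultures, while the other 7 genes lie between -0.87 and 0.69 there.

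The apolipoproteins, which form the surface of the particle, were not called by edgeR with all cultures. Apoc3 and Apoa1 were called lower without control culture 1 in MYO5B(G519R), as given above, and DESeq2 called Apoc3 there with all cultures (DESeq2 adjusted p = 0.0276). Apob (ENSMUSG00000020609, chromosome 12, 7977648 to 8016835), the structural protein of the chylomicron, was at 40.8, 146, 92.6 and 88.0 FPKM in control and 131, 96.5, 168 and 117 FPKM in MYO5BΔIEC cultures. In MYO5B(G519R) it was at 62.7, 76.2, 145 and 69.3 FPKM, so that culture 3 lay near control culture 2 and the other 3 lay between control cultures 1 and 4. The log2 fold change was 0.45 in MYO5BΔIEC (95% interval -0.29 to 1.19, edgeR adjusted p = 0.351) and -0.09 in MYO5B(G519R) (95% interval -0.94 to 0.76, edgeR adjusted p = 0.890). The values of Apob without control culture 1 were 0.20 and -0.31. The intervals span both directions, so the data do not show that Apob was unaltered.

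Apoa1, Apoc3 and Apoa4 lie together on chromosome 9 within 14.9 kb (46228580 to 46243459), Apoc3 on the opposite strand between the other two. Apoa1, the main protein of high-density lipoprotein and a component of chylomicrons, was at 357, 2195, 1669 and 1705 FPKM in control, 2233, 1226, 1751 and 779 FPKM in MYO5BΔIEC and 1007, 1226, 1347 and 1058 FPKM in MYO5B(G519R) cultures. Its log2 fold change was -0.02 in MYO5BΔIEC (SE 0.48) and -0.39 in MYO5B(G519R) (SE 0.43), or -0.34 and -0.69 without control culture 1. Apoa4, which attaches to nascent chylomicrons and is induced by fat absorption, was at 144, 517, 554 and 537 FPKM in control, 1226, 426, 692 and 544 FPKM in MYO5BΔIEC and 447, 512, 612 and 435 FPKM in MYO5B(G519R) cultures. It had the largest positive value of the 10 genes, 0.69 in MYO5BΔIEC (SE 0.43, edgeR adjusted p = 0.261), which became 0.40 without control culture 1. In MYO5B(G519R) it was at 0.16 with that culture and at -0.10 without it. Apoc3, an inhibitor of lipoprotein clearance, was at 105, 331, 255 and 238 FPKM in control, 293, 142, 293 and 90.9 FPKM in MYO5BΔIEC and 146, 157, 126 and 89.2 FPKM in MYO5B(G519R) cultures. Its log2 fold change was -0.21 in MYO5BΔIEC and -0.87 in MYO5B(G519R) (SE 0.31, edgeR adjusted p = 0.0628), and -0.46 and -1.09 without control culture 1.

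Neighboring genes of the cluster were checked within 100 kb. Sik3, which ends before Apoa1, rose in MYO5BΔIEC (log2 fold change 0.98, SE 0.20, edgeR adjusted p = 0.00637), whereas Zpr1 (-0.26, edgeR adjusted p = 0.291) and Bud13 (0.41, edgeR adjusted p = 0.123) did not pass. In MYO5B(G519R) both Sik3 (0.92, edgeR adjusted p = 0.00949) and Bud13 (0.63, edgeR adjusted p = 0.0121) rose. Apoa5 and 4931429L15Rik were too low to test, with means of 0.0189 and 0.0231 CPM. The 3 apolipoprotein genes did not keep 1 ratio to each other. The FPKM ratio of Apoa1 to Apoc3 was 6.55 to 7.17 in control cultures 2 to 4, 5.98 to 8.63 in MYO5BΔIEC and 6.88 to 11.9 in MYO5B(G519R) cultures. It was 3.41 in control culture 1, 5.82 and 9.34 in Compound-1-treated cultures 1 and 2, and 42.4 and 33.6 in Compound-1-treated cultures 3 and 4.

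**Figure D3:**
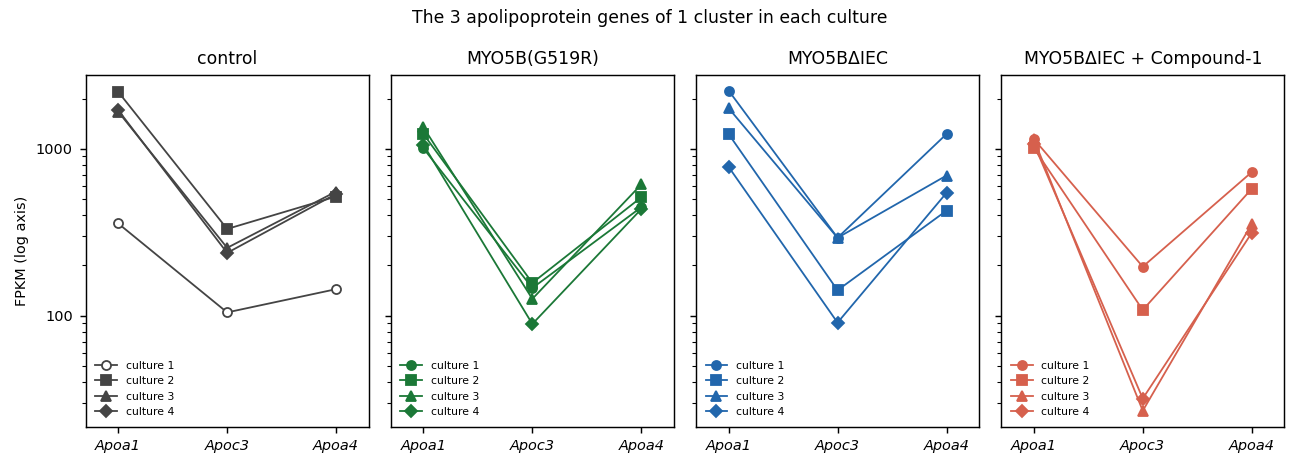
FPKM (log axis) of Apoa1, Apoc3 and Apoa4, in their order along the chromosome, with 1 line per culture and 1 panel per group. Apoc3 drops to 26.9 and 31.9 FPKM in treated cultures 3 and 4, while Apoa1 stays at 1142 and 1072 FPKM there.

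Mttp, Mogat2 and Dgat1, the enzymes and transfer protein that rebuild triglyceride and load it, were not called in either model with all cultures. Mttp (ENSMUSG00000028158, chromosome 3, 138089854 to 138144968) was at 103, 228, 195 and 165 FPKM in control, 252, 169, 281 and 198 FPKM in MYO5BΔIEC and 139, 160, 223 and 153 FPKM in MYO5B(G519R) cultures, with log2 fold changes of 0.35 (SE 0.26) and -0.07 (SE 0.25). Trmt10a overlaps Mttp on the other strand and had 284 to 489 counts per library against 20608 to 56690 for Mttp. Mogat2 (chromosome 7, 99219084 to 99238619), the acyltransferase that joins a fatty acid to monoacylglycerol, ranged from 31.4 to 92.1 FPKM over all cultures, with log2 fold changes of 0.42 (SE 0.25) and 0.07 (SE 0.22). Dgat1 (chromosome 15, 76502015 to 76511953), which adds the last fatty acid of triglyceride, varied least, from 75.1 to 118 FPKM. Its log2 fold changes were 0.03 (95% interval -0.39 to 0.45) and -0.22 (95% interval -0.52 to 0.09). In MYO5BΔIEC without control culture 1 the values were 0.16 for Mttp, 0.22 for Mogat2 and -0.08 for Dgat1. In MYO5B(G519R) they were -0.23, -0.09 and -0.29 in the same order.

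A ratio of carrier to assembly genes within a culture does not depend on library scaling, but it can carry a trend of expression on gene length. Fabp1 has 553 exonic bases and Mttp 6206. With that trend taken out, the log2 fold change in MYO5BΔIEC went from -1.56 to -1.01 for Fabp1 and from 0.35 to 0.14 for Mttp. The ratio of Fabp1 to Mttp in FPKM was 33.0 to 41.9 in control cultures 2 to 4, 5.20 to 11.6 in MYO5BΔIEC and 6.75 to 14.2 in MYO5B(G519R) cultures. In control culture 1 it was 4.25, within the range of the Compound-1-treated cultures at 3.36 to 8.20. Across all 16 cultures Fabp2 and Cd36 varied together (Pearson r 0.848 on log2 CPM, and 0.951 without control culture 1), as did Apob and Mttp (0.95, and 0.917 without it), whereas Apob and Fabp1 did not (0.120, and -0.244 without it). These are descriptions over 16 libraries that share groups, and over the 45 pairs the median r was 0.534. Differences between groups enter these values. As deviations from group means, r was 0.781 for Fabp2 and Cd36 (0.777 without control culture 1) and 0.943 for Apob and Mttp (0.898). For Apob and Fabp1 it was then 0.546 (-0.233 without that culture), and for Apob and Fabp2 0.748 (0.494). The median r of the deviations over the 45 pairs was 0.762.

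**Figure D4:**
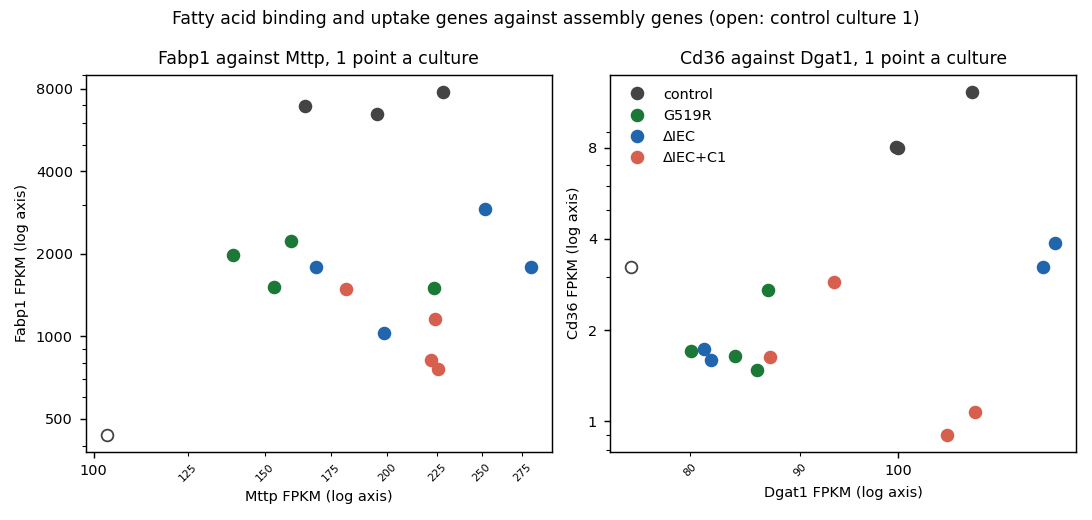
Fabp1 against Mttp (left) and Cd36 against Dgat1 (right), in FPKM on log axes, with 1 point per culture and control culture 1 open. Control cultures 2 to 4 lie above the cultures of every other group at like levels of Mttp and Dgat1, and control culture 1 lies at the left edge in both panels.

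The models were compared with each other directly. In MYO5B(G519R) against MYO5BΔIEC, 1 of 17943 genes (0.00557%) was called, and none of the 10. All 10 log2 fold changes were negative, from -0.06 (Fabp1) to -0.66 (Apoc3), with edgeR adjusted p from 0.838 to 0.965. All 15 enterocyte markers were negative as well, with a median of -0.58 beside -0.39 for the 10 genes, and their part in these values was not tested. For Fabp1 the interval was -0.64 to 0.52 and for Cd36 -1.14 to 0.21. DESeq2 called 4 genes and limma 0, again with none of the 10, and 772 genes had an unadjusted p under 0.05 in edgeR.

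With Compound-1 the values of Fabp1, Fabp2 and Cd36 lay further below control than with vehicle, but no difference between treatment and vehicle passed the adjustment. Fabp2 was at 219, 211, 172 and 187 FPKM in treated cultures against 247 to 468 with vehicle, so that the groups did not overlap. Its log2 fold change against vehicle was -0.80 (95% interval -1.28 to -0.32, 1.74-fold lower, edgeR adjusted p = 0.532). Fabp1 was at 820, 1487, 757 and 1153 FPKM, with a log2 fold change of -0.85 (95% interval -1.52 to -0.17, edgeR adjusted p = 0.568), and its groups overlapped. Cd36 was at 2.88, 1.63, 1.07 and 0.903 FPKM, with a log2 fold change of -0.70 (95% interval -1.58 to 0.19, edgeR adjusted p = 0.774). Of 18037 genes tested, 0 (0%) were called by edgeR and 0 by limma, 91 were called by DESeq2 with none of the 10 among them, and 1355 had an unadjusted p under 0.05. Groups that did not overlap, with treated lower, were seen for 1.27% of genes.

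The other genes under Compound-1 had intervals that include no change. Apoc3 was at 197, 108, 26.9 and 31.9 FPKM, with a log2 fold change of -1.17 against vehicle (95% interval -2.48 to 0.14, edgeR adjusted p = 0.707). Its 2 low cultures were below every other culture of the study. Markers moved in this comparison too, with none called: 13 of 15 enterocyte markers were negative (median -0.74), 6 of 6 goblet markers positive (median 0.49) and 4 of 4 regenerative and fetal markers positive (median 1.81). Summed enterocyte markers were at 4630 to 6998 CPM in treated and 5635 to 11890 CPM in vehicle cultures. Treated cultures 3 and 4, the ones with low Apoc3, had summed goblet markers of 5988 and 4229 CPM against 2127 to 2509 CPM in the other treated and vehicle cultures. Clu, a regenerative marker, was at 1510 and 448 CPM in treated cultures 3 and 4 and at 101 to 297 CPM in those others. The part of these markers in the values of the 10 genes was not tested. Apoa4 was at 725, 576, 354 and 313 FPKM (-0.56, 95% interval -1.33 to 0.21) and Apoa1 at 1145, 1011, 1142 and 1072 FPKM (-0.47, 95% interval -1.06 to 0.11). Apoa1 had the narrowest spread of the 4 groups here, with a coefficient of variation of 5.84%. Apob at 136, 102, 190 and 139 FPKM was the gene with a positive value (0.12, 95% interval -0.35 to 0.60). Mttp, Mogat2 and Dgat1 had values of -0.10, -0.25 and -0.03, with intervals that reached from -0.61 at the lowest bound to 0.33 at the highest.

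Against control, the treated cultures had 3 of 10 genes called lower, where 29.4% of 17937 genes were called and 13.7% as lower. Cd36 was 4.92-fold lower, or -2.30 on the log2 scale (SE 0.45, edgeR adjusted p = 0.00664). Fabp1 was at -2.38 (SE 0.66, edgeR adjusted p = 0.0225), and Fabp2 at -2.11 (SE 0.53, edgeR adjusted p = 0.0159). Cd36 alone of the 10 did not overlap with control, as was the case for 13.6% of genes with treated lower. The Cd36 call held in all 8 fits that left out 1 culture. The Fabp1 call held in 2 of them, without control culture 1 and without treated culture 2, and its edgeR adjusted p was 0.0546 to 0.0705 without any of the other 6. The Fabp2 call was lost without treated culture 3 (edgeR adjusted p = 0.0509). Without control culture 1, 4 of 10 genes were called, against a background of 19.2%, the fourth being Apoa1 (-0.77, edgeR adjusted p = 0.00283). Cd36 was then at -2.54, Fabp1 at -2.74 and Fabp2 at -2.45, and the others ran from -1.59 (Apoc3) to 0.38 (Apob). All comparisons with control share the same 4 control cultures.

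Lists of other genes of the pathway were examined in MYO5BΔIEC against control, where 13.5% of all genes tested were called higher, and 21.2% without control culture 1. Among genes of triglyceride synthesis, 5 of 12 tested were higher and 0 lower (median log2 fold change 0.37), among them Dgat2 (1.39, SE 0.20, edgeR adjusted p = 0.00171), an acyltransferase with the same reaction as Dgat1, and Lpin1 (1.00, edgeR adjusted p = 0.0428), a phosphatidate phosphatase. Of other uptake and cytosolic carrier genes, 4 of 11 were higher and 0 lower (median 0.29), including the cholesterol transporter Npc1l1 (1.18, edgeR adjusted p = 0.00687) and the cholesterol exporter Abca1 (0.94, edgeR adjusted p = 0.0322). Of lipid droplet and lipolysis genes 2 of 10 were higher (median 0.47), among them Cidec, a lipid droplet protein (1.00, edgeR adjusted p = 0.00924), while Mgll did not pass (0.83). Without control culture 1 the counts were 5 higher and 2 lower for triglyceride synthesis, 5 higher and 2 lower for uptake and carriers, and 4 higher and 0 lower for lipid droplets.

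Genes of particle loading and export had calls in both directions or none. Of 17 genes of COPII and prechylomicron vesicles, 5 were higher and 2 lower (median -0.05), with the coat component Sec24a at 0.95 (edgeR adjusted p = 0.00982) and the membrane fusion gene Bet1 at -1.09 (SE 0.17, edgeR adjusted p = 0.00232). Of 5 genes of lipid loading in the endoplasmic reticulum 0 were called, with Tm6sf2 at 0.49 (edgeR adjusted p = 0.0826) and P4hb, the partner subunit of MTTP, at 0.38 (edgeR adjusted p = 0.117). Among 4 genes of Apob mRNA editing, the cofactor Rbm47 rose (0.99, SE 0.18, edgeR adjusted p = 0.00392) and Syncrip fell (-0.61, edgeR adjusted p = 0.0310). Of 5 tested apolipoprotein genes outside the 10, 0 were called, with Apoc2 at 1.91 and Apoh at -0.97. Of 4 tested lipase and colipase genes, Pnliprp2 was higher (1.28) and Pnliprp1 (-1.34) and Clps lower. Of 15 transcription factors of the pathway 5 were higher and 1 lower (median 0.34), Ppard (1.41, SE 0.21, edgeR adjusted p = 0.00207) and Srebf2 (0.76, edgeR adjusted p = 0.00597) among the former. Without control culture 1, 5 vesicle genes were higher and 6 lower, 0 loading genes were higher and 2 lower, and 7 transcription factors were higher and 2 lower.

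**Figure D5:**
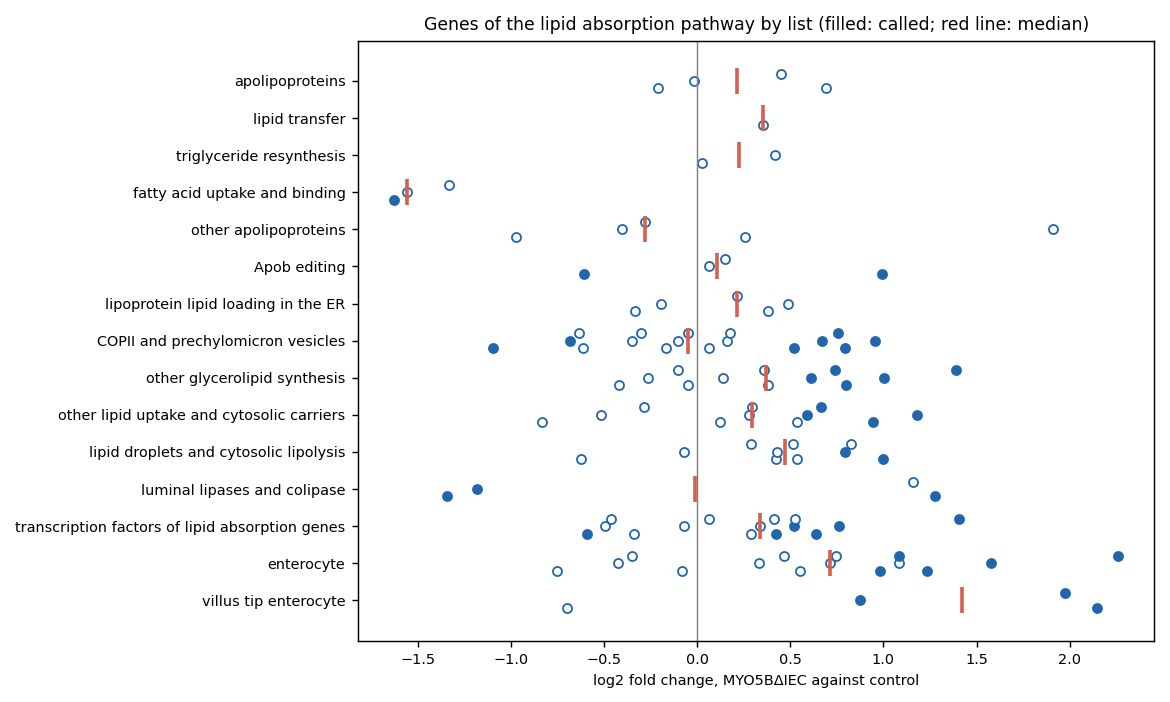
Log2 fold change in MYO5BΔIEC against control (horizontal axis) of every tested gene, by list, with called genes filled and the list median as a red line. The fatty acid uptake and binding genes have a median of -1.56, whereas other glycerolipid synthesis has 0.37 and the villus tip list 1.42.

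In MYO5B(G519R) against control 13.1% of all genes were called higher, and 24% without control culture 1. The same lists gave 4 higher and 0 lower of 12 triglyceride synthesis genes, 1 higher and 1 lower of 11 other uptake genes, 2 higher and 0 lower of 10 lipid droplet genes and 7 higher and 3 lower of 15 transcription factors. Dgat2 rose (1.13, SE 0.15, edgeR adjusted p = 0.00204), as did Npc1l1 (0.72, edgeR adjusted p = 0.0123) and Ppard (1.20, edgeR adjusted p = 0.00483). For vesicle genes the counts were 3 higher and 4 lower of 17. Without control culture 1 they were 5 and 2 for triglyceride synthesis, 2 and 2 for other uptake, 5 and 1 for lipid droplets, 8 and 4 for transcription factors, and 6 and 7 for vesicle genes.

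Markers of maturity and of other cell types were set beside these values, and their part in them was not tested. In MYO5BΔIEC 5 of 15 enterocyte markers were higher and 0 lower (median 0.71), among them the brush border peptidase Anpep (1.58, SE 0.18, edgeR adjusted p = 0.00140) and Tmprss15 (2.26, edgeR adjusted p = 0.0254), and the median without control culture 1 was 0.46 with 5 higher and 1 lower. Villus tip markers had 3 of 4 higher, with Ada at 2.15 and Slc28a2 at 1.97. The summed level of the 4 tip markers was 260 to 417 CPM in control and 520 to 871 CPM in MYO5BΔIEC cultures, while that of Fabp1 and Fabp2 was 0.394% to 0.506% of counts in control cultures 2 to 4, 0.0364% in control culture 1 and 0.0857% to 0.210% in MYO5BΔIEC. With all 4 controls the share of Fabp1 and Fabp2 thus overlapped between the groups, and the sum of the tip markers did not. Taken singly, 2 of the 4 tip markers did not overlap, with MYO5BΔIEC higher, but the share of all genes that did so was not computed. In MYO5B(G519R) the enterocyte list had 3 higher and 3 lower (median 0.07) and the tip list 2 higher and 0 lower. Leaving out control culture 1 there gave 3 higher and 5 lower enterocyte markers (median -0.10), and again 2 higher and 0 lower tip markers. Of 6 proliferation genes 4 were lower in MYO5BΔIEC, with Cdk1 at -0.98 and Pcna at -0.87, and of 4 regenerative and fetal genes 3 were higher, with Clu at 2.25.

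Of the remaining marker lists in MYO5BΔIEC, pan-epithelial genes had 2 of 5 higher (Cdh1 0.92, Krt8 0.65), stem cell genes 1 of 5 lower (Olfm4 -2.26, with Ascl2 at -0.38), Paneth genes 2 of 5 lower (Itln1 -0.83, with Defa24 at -0.77 not called), goblet genes 2 higher and 2 lower of 6 (Clca1 1.61 and Fcgbp 1.42 higher), enteroendocrine genes 2 of 7 higher (Chga 1.25, Chgb 0.70) and tuft genes 1 of 4 tested lower (Pou2f3 -1.04, with Avil at -1.25 not called). Ileal enterocyte genes had 1 of 4 higher (Slc10a2 1.83), with the ileal bile acid carrier Fabp6 at 0.344 CPM in control and 0.0524 in MYO5BΔIEC, not called. Of fibroblast, immune and endothelial genes none passed, with Pdgfra at 0.35, Cd74 at 0.96, Lyz2 at -0.31 and Pecam1 at -0.46. In MYO5B(G519R) the fibroblast gene Col1a1 was higher (2.39, edgeR adjusted p = 0.0476), at 0.317 CPM against 0.0562 CPM in control. In MYO5BΔIEC without control culture 1 the counts were 4 of 5 lower for Paneth, 4 of 5 higher for pan-epithelial, 4 of 4 higher for regenerative and fetal, 3 higher and 3 lower for goblet, 1 higher and 1 lower for stem cell, 1 higher and 2 lower for ileal and 1 of 2 higher for immune genes.

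Gene length moved with the values of the short genes. Fabp1, with 553 exonic bases, and Fabp2, with 965, are the shortest of the 10, and with the trend of expression on length taken out their log2 fold changes in MYO5BΔIEC were -1.01 (edgeR adjusted p = 0.222) and -0.93 (edgeR adjusted p = 0.181). Cd36, with 3590 bases, was at -1.69 (edgeR adjusted p = 0.0125). In MYO5B(G519R) the values were -1.11, -1.17 and -2.16 in the same order. The correction also moved counts of the lists, beside a background of 11.6% higher and 16% lower in MYO5BΔIEC and 12% higher and 16.2% lower in MYO5B(G519R). In MYO5BΔIEC it left 1 of 11 other uptake genes higher in place of 4, 3 of 15 transcription factors higher in place of 5, 3 of 17 vesicle genes higher in place of 5, and 0 of 5 Paneth genes lower in place of 2. In MYO5B(G519R) 8 of 17 vesicle genes were lower in place of 4, and 2 of 12 triglyceride synthesis genes were higher in place of 4.

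The genes whose pattern was most like the mean standardized profile of the 10 over the 16 cultures were sought among 13535 genes with a mean of at least 1 CPM. They were Ephx2 (Pearson r 0.953), Btnl1 (0.940), Slc41a2 (0.934), Slc47a1 (0.934) and Hsd17b11 (0.901), with r of 0.887 to 0.943 without control culture 1. The most opposite were Mri1 (-0.836) and Desi1 (-0.826), with -0.790 and -0.674 without it. The profile itself was lowest in control culture 1 (-1.79) and highest in control culture 2 (1.22), followed by MYO5BΔIEC cultures 1 (1.07) and 3 (0.880), so that the profile of the 10 genes as a whole did not order the groups.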

How the data were processed

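RNA of 16 enteroid cultures was sequenced from poly-A libraries with no strand marking stated. According to the methods and the submitters' processing notes, the authors aligned reads to GRCm38 (mm10) with STAR 2.5, parsed the alignments with TopHat and counted reads per gene with HTSeq 0.6.1, and they tested with DESeq2. The deposited counts are raw reads per gene, and the deposited FPKM values are the same counts divided by gene length and a library size set by the authors.

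For the tests edgeR 4.0.16 (R 4.3.3) was run on the counts with TMM scaling and the quasi-likelihood test, after keeping genes that reached 10 counts in 2 or more of the 8 libraries, with Benjamini-Hochberg adjustment over all genes tested and a threshold of 0.05. A called gene passed this threshold, and CPM are counts scaled by TMM over 16 libraries. FPKM was used for levels between genes and in limma 3.58.1. The p-values measure the spread between these cultures. Alternatives were DESeq2 1.42.0, other scalings, filters, designs and left-out cultures. Named genes were the 10 members, the 2 largest absolute fold changes of each list in MYO5BΔIEC against control (other called genes are counted or, for Clps, named after their values were seen), the cluster's neighbors and the genes most like or unlike the profile. Members and lists were chosen with earlier results of these data known. The scripts were tested on simulated data. Sequences are RefSeq's (GRCm38.p6). Protein sequences were not used here. Some genes that the naming rule takes are not reported here.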

Additional observations from a re-analysis of the deposited data

Results flagged for a closer look

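In 48 sets of 4 cultures (the 10 genes, their summed share of counts and the mitochondrial share, in each group), 3 held a culture whose gap to its nearest neighbor exceeded Dixon's 95% critical value, where chance flags about 1 in 20. Apoa4 was at 264 CPM in control culture 1 and at 968 to 1036 CPM in the other controls. Apob was at 2030 CPM in MYO5B(G519R) culture 3 and at 876 to 1063 CPM in the other cultures of that group. Mttp was at 1151 CPM in Compound-1-treated culture 2 and at 1391 to 1419 CPM in the other treated cultures.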

How the results depend on the processing

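The number of the 10 genes called was within 1.5 times its first value in 78 of 90 recomputed counts, and 844 of 920 recomputed values of single genes kept their direction and their side of the threshold. In MYO5BΔIEC against control 3 genes in place of 1 were called with no filter and with all 4 groups in one fit (Cd36, Fabp1 and Fabp2). In MYO5B(G519R) against control 3 were called by DESeq2, with no filter and with all 4 groups in one fit. In treated cultures against control 1 in place of 3 was called by limma with a pseudocount of 1 or of 0.1 added to FPKM. Leaving out 1 culture gave 1 to 3 called genes in MYO5BΔIEC and 1 to 6 in MYO5B(G519R), in both cases with the higher count without control culture 1, and 1 to 4 in treated cultures against control, with 1 called gene without treated culture 3. The cause was not tested.

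Replicate numbers were not taken to pair the cultures, since in no comparison did every pair with the same number have a correlation of deviations over 0.1 (8 of 24 pairs did, range -0.233 to 0.614), and 7 of 16 libraries matched best with their own number. Between MYO5B(G519R) and each MYO5BΔIEC group all 4 pairs were positive. With the replicate block 0 genes were called in MYO5BΔIEC, where Cd36 missed the threshold (edgeR adjusted p = 0.0529). The block left 1 called gene each in MYO5B(G519R) and in treated cultures against control.

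Reversals concerned values near 0. Apoa1 in MYO5BΔIEC was at 0.00075 with DESeq2 and with its size factors in edgeR, 0.29 with the length offset, 0.051 with the replicate block, 0.19 with limma on both pseudocounts and -0.34 to 0.24 over left-out cultures. In the same comparison Apoc3 was at 0.13 with the length offset and -0.46 to 0.034 over left-out cultures, and Dgat1 at -0.079 to 0.12. Over left-out cultures in MYO5B(G519R), Apoa4 ran from -0.10 to 0.29, Apob from -0.44 to 0.23, Mttp from -0.23 to 0.094 and Mogat2 from -0.093 to 0.21. Compound-1 against vehicle gave Dgat1 at 0.0049 and 0.0051 with limma and -0.12 to 0.060 over left-out cultures, Apob -0.032 to 0.29 and Mttp -0.21 to 0.030. Treated against control gave Apoa4 from -0.12 to 0.32 and Dgat1 from -0.062 to 0.085. Fabp1 in MYO5B(G519R) against MYO5BΔIEC was at 0.017 with the replicate block and with limma on both pseudocounts, and -0.26 to 0.25 over left-out cultures.

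Depth did not limit the 10 genes, since the lowest count of any was 115. With 4 cultures a group, and 1 control far from the rest, the intervals of Fabp1 and Fabp2 against control spanned over 2 log2 units.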
